A study of Mus musculus with 8 samples.

Results

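The transcripts described here encode 8 chemokine receptors of CD8 T cells: Ccr2, Ccr4, Ccr8, Ccr9, Cxcr3, Cxcr4, Cxcr6 and Cx3cr1. They were taken from the deposited table by symbol, and all 8 of them were found among its 41730 entries. The libraries came from sorted mouse OT-I CD8+ T cells, which carry a transgenic T cell receptor specific for SIINFEKL, a peptide of ovalbumin. All cells had been cultured with bone marrow-derived dendritic cells pulsed with that peptide. The 4 RGX-104 libraries (replicates 5 to 8) came from cultures with 2 µM RGX-104, which activates the liver X receptors (LXR) and is a synthetic compound, and the 4 DMSO libraries (replicates 1 to 4) from cultures with the solvent. T cells and dendritic cells were exposed together, and the labels used here give neither the time in culture nor the age of the mice, nor whether libraries came from separate cultures or animals. Every p-value therefore measures only the spread between these libraries, which may be technical.

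Chemokine receptors are G protein-coupled receptors. A bound chemokine activates inhibitory G proteins, and the cell polarises and moves up the chemokine gradient. On CD8 T cells the set of receptors changes with activation: CXCR4 binds CXCL12 and holds cells in bone marrow and lymphoid tissue, CXCR3 guides effector cells to inflamed tissue that makes CXCL9 and CXCL10, and CX3CR1, the fractalkine receptor, marks effector cells of high cytotoxic capacity. CCR2 and CX3CR1 are also receptors of monocytes and macrophages, and CXCR4 is present on most leukocytes.

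RNA of these 8 receptors was sparse, and depth set what could be said of them. Total counts ranged from 13144704 to 14947537 in RGX-104 libraries and from 14867824 to 15966972 in DMSO libraries, and 1 count equalled 0.0631 to 0.0762 CPM (counts scaled to a common library size with TMM factors). Together the 8 receptors held 0.00538% ± 0.000443 of counts in RGX-104 libraries and 0.00558% ± 0.000385 in DMSO libraries (SD, n = 4 each; exact two-sided permutation test, p = 0.457). The sum over the 8 thus differed by less than the spread between libraries, and it rested mainly on Cxcr3 and Ccr4. The CD8 markers Cd8a and Cd8b1 were at 397 and 451 CPM in RGX-104 and at 276 and 344 CPM in DMSO libraries, while Cd4 had 0 to 2 counts in any library. Of 12 tested CD8 T cell markers 4 rose (Cd8a, Cd8b1, Lat and Thy1) and none fell, where 0.888% of all genes tested rose and 1.78% fell. The Thy1 call was lost without any 1 of DMSO replicates 2 and 3 and RGX-104 replicates 5, 6, 7 and 8 (edgeR adjusted p = 0.0505 to 0.0995). EdgeR called none of 4 CD4 and regulatory, 3 neutrophil and 1 B cell markers tested (2, 0 and 0 of them at an unadjusted p under 0.05, with 0 of these called by DESeq2 or limma-voom). Of 2 NK cell markers tested it called 1, Eomes, which is also listed below among transcription factors of T cells, and not Klre1. Ncr1, Klrb1c, Klra4 and Klra8 had 0 to 2 counts in any library.

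Of the 8 receptors, 7 had enough counts to be tested with edgeR's quasi-likelihood test over all 12162 genes. Cxcr4 fell in RGX-104, the other 6 were not called, and none rose (of all genes tested, 2.66% were called, 0.888% as higher and 1.78% as lower). An unadjusted p under 0.05 was seen for 3 of the 7 and for 1679 of all 12162 genes tested. Cx3cr1 was lower in every RGX-104 library than in any DMSO library and Ccr4 was higher in every one, but neither passed the adjusted threshold of 0.05. Groups without overlap were seen in 2 of the 7 tested receptors, against 8.20% of all genes tested (3.88% higher and 4.32% lower). Cxcr3, Cxcr6, Ccr2 and Ccr9 overlapped between the groups, and Ccr8 was too low to test. The log2 fold change (RGX-104 over DMSO) was negative for 5 and positive for 2 of the 7, with a median of -0.35, against 0.0028 over all genes tested.

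**Figure D1:**
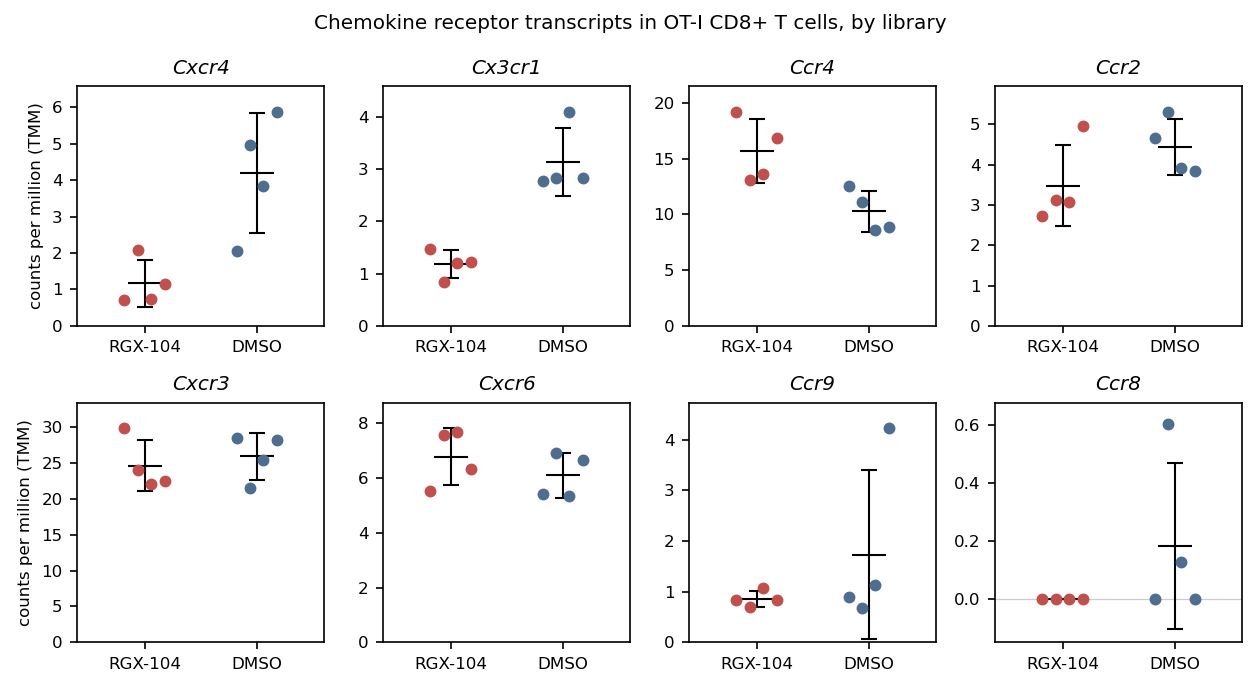
TMM-scaled CPM (vertical axes, each with its own scale) of the 8 receptors in the 4 RGX-104 and 4 DMSO libraries. Points are libraries, bars are the mean ± SD. Cx3cr1 and Ccr4 separate the groups, Cxcr4 touches at 2.09 CPM in RGX-104 replicate 6 and 2.07 CPM in DMSO replicate 1, and the high DMSO mean of Ccr9 rests on replicate 4.

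The promoters of Cxcr4 and Cx3cr1 are shown because these receptors had the largest differences of the 7 tested. All 8 members were matched by symbol to the RefSeq promoter table of GRCm38.p6, and the 250 bases before each start were read on the gene's strand, 5′ to 3′. Cxcr4 lies on the minus strand and its window is chr1:128592300-128592549. That of Cx3cr1, also on the minus strand, is chr9:120068297-120068546. GENCODE M21 puts the start of Cx3cr1 further upstream, at 120069879, so this window lies within the gene as annotated there and the bases before that start were not read. Capitals mark, on either strand, the TATA box TATAAA, the GC box GGGCGG and the NRF1 half-site TGCGCA; the Cx3cr1 window has no match and no capitals.
Cxcr4: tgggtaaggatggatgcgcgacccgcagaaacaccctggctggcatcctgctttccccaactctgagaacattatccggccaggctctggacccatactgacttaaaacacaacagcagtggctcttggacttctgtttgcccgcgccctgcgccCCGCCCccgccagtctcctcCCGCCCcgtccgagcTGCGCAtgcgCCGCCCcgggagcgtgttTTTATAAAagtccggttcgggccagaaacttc
Cx3cr1: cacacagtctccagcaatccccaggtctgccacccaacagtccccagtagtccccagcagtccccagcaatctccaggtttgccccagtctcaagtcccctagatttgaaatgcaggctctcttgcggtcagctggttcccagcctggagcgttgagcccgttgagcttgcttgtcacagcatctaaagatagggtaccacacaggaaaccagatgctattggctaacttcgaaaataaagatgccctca
In the Cxcr4 window, 61.2% G and C, the pair of overlapping TATA matches begins 32 and 30 bases before the start, the NRF1 half-site 60 bases and the 3 GC boxes 95, 75 and 50 bases before it. Among all 32851 promoters of this length, TATAAA was found in 12.37%, GGGCGG in 32.74% and TGCGCA in 6.43%, and Cxcr4 was the only one of the 8 receptors with any of these. The half-site AGGTCA, the core of the element that LXR binds, was in the window of 0 of the 8 receptors and of 14.02% of all promoters, and a direct repeat of it with 4 bases between was in 0.0152%. The T-box core GGTGTG (16.28% of all promoters) was found only in the window of Ccr9, and the hypoxia element core ACGTG (16.57%) in none of the 8. All motifs were searched on both strands, and a window without a match says nothing of elements elsewhere.

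Cxcr4 (GRCm38, chromosome 1, 128588199 to 128592293) encodes the CXCL12 receptor. It was at 0.701, 2.09, 0.736 and 1.14 CPM in RGX-104 replicates 5 to 8, against 2.07, 4.97, 3.85 and 5.88 CPM in DMSO replicates 1 to 4. RGX-104 replicate 6 lay just above DMSO replicate 1, and the other 3 RGX-104 libraries lay below every DMSO library. Cxcr4 fell by 1.84 ± 0.43 on the log2 scale (± SE; edgeR adjusted p = 0.0180), a level 3.58-fold lower in RGX-104 with a 95% interval of 1.94 to 6.60. These values rest on 66 reads in the RGX-104 and 256 in the DMSO libraries. The coefficient of variation between libraries was 55.3% in RGX-104 and 39.2% in DMSO, where counting alone gives 24.6% and 12.5%. The call was lost without any 1 of DMSO replicates 2 and 4 and RGX-104 replicates 5, 7 and 8 (adjusted p = 0.0654, 0.0796, 0.0588, 0.0680 and 0.0605), with log2 fold changes of -1.63 to -1.83. No exon of another GENCODE M21 gene overlaps those of Cxcr4.

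Cx3cr1 (chromosome 9, 119901616 to 120069879) encodes the receptor of fractalkine, the membrane-bound chemokine CX3CL1. It was at 1.47, 0.834, 1.21 and 1.22 CPM in RGX-104 replicates 5 to 8, against 2.78, 2.82, 4.101 and 2.84 CPM in DMSO replicates 1 to 4. The groups did not overlap, and DMSO replicate 3 stood above the other DMSO libraries. The log2 fold change was -1.40 ± 0.39 (edgeR adjusted p = 0.0562), with a 95% interval of 1.51- to 4.61-fold lower in RGX-104. DESeq2 called it (log2 fold change -1.41, adjusted p = 0.0298), and so did edgeR with a stricter filter of a mean of at least 20 counts in a group (adjusted p = 0.0368). Cx3cr1 passed that filter only through its DMSO mean of 48.25 counts, against 16.75 in RGX-104. The filter also left 11213 genes to adjust over, so the second call adds no support of its own. Without DMSO replicate 3 the log2 fold change was -1.24 (adjusted p = 0.215). Its exons share 78 bases with the antisense gene Gm33858, which had 1 count in all 8 libraries.

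Because Cx3cr1, Ccr2 and Cxcr4 are also receptors of myeloid cells, markers of dendritic cells and macrophages were set beside them. In bulk RNA, fewer cells of a type and less RNA per cell cannot be told apart. The 17 dendritic cell markers summed to 0.00991 to 0.0124% of counts in RGX-104 libraries and 0.0109 to 0.0120% in DMSO libraries, and of 8 tested edgeR called none (DESeq2 called 0, limma-voom called 0). Of those 8, 6 had a negative log2 fold change, the direction of Cx3cr1 and Cxcr4, with a median of -0.31. The 2 with an unadjusted p under 0.05 were both lower in RGX-104: Ccl22, at 1.61 CPM in RGX-104 and 3.66 CPM in DMSO libraries, and Fscn1, which encodes the actin-bundling protein fascin, at 2.37 CPM in RGX-104 and 4.23 CPM in DMSO libraries (log2 fold change -0.83 ± 0.32, edgeR adjusted p = 0.224). Itgax, with the next smallest p, went the other way, at 1.66 CPM in RGX-104 and 1.11 CPM in DMSO libraries (log2 fold change 0.58 ± 0.45, edgeR adjusted p = 0.619). The dendritic cell sum rested mainly on Cst3, at 68.9 and 68.0 CPM in RGX-104 and DMSO libraries, and Cd83, at 24.4 and 25.2 CPM. The 16 macrophage and monocyte markers summed to 0.00963 to 0.0110% in RGX-104 libraries and 0.00842 to 0.00963% in DMSO libraries (exact two-sided permutation test, p = 0.0286, the smallest that 4 against 4 allows; 0.105 when adjusted over 11 library measures), the opposite direction to Cx3cr1, and edgeR called none of 12 tested, with 1 at an unadjusted p under 0.05 (DESeq2 called 0, limma-voom called 0). That 1 was Ly6c2, at 44.97 CPM in RGX-104 and 37.05 CPM in DMSO libraries (edgeR adjusted p = 0.191). The sum rested mainly on Ly6c2 and Ctss, the latter at 36.47 and 31.96 CPM in the same order of groups. The next highest, Lyz2, was at 4.06 and 3.74 CPM. Of the 12 tested, 8 had a positive and 4 a negative log2 fold change. The direction of the sum is thus mainly that of Ly6c2 and Ctss. Which cells the reads of these genes came from was not tested. The CD8 T cell marker share, 0.256% in RGX-104 and 0.218% in DMSO libraries, gave the same exact permutation p of 0.0286 (0.105 when adjusted). So did the NK cell marker share, 0.0183% and 0.0120% in the same order of groups, which rested mainly on Eomes. Csf1r, the receptor of the macrophage growth factor, was at 1.39 CPM in RGX-104 and 1.73 CPM in DMSO libraries. Adgre1, which encodes F4/80, was at 0.479 and 0.329 CPM in the same order of groups. Clec10a, H2-Aa, H2-Ab1 and H2-Eb1 were listed at 0 in every library, each under a symbol that the table repeats with a number appended, so their 0 is not read as absence. Whether residual myeloid cells have a part in the receptor values was not tested.

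Ccr4 (chromosome 9, 114490316 to 114504916) encodes the receptor of CCL17 and CCL22, chemokines that dendritic cells make. It was at 19.2, 13.1, 13.7 and 16.8 CPM in RGX-104 replicates 5 to 8, against 12.5, 11.1, 8.58 and 8.92 CPM in DMSO replicates 1 to 4. Every RGX-104 library lay above every DMSO library, the nearest being RGX-104 replicate 6 and DMSO replicate 1. The log2 fold change was 0.61 ± 0.18 (edgeR adjusted p = 0.0820; 95% interval 1.18- to 1.98-fold higher in RGX-104). With 887 reads in RGX-104 and 630 in DMSO libraries, this estimate was more precise than that of Cxcr4 or Cx3cr1. Its adjusted p ran from 0.0578 with DESeq2 to 0.232 without DMSO replicate 3, and no alternative called it.

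**Figure D2:**
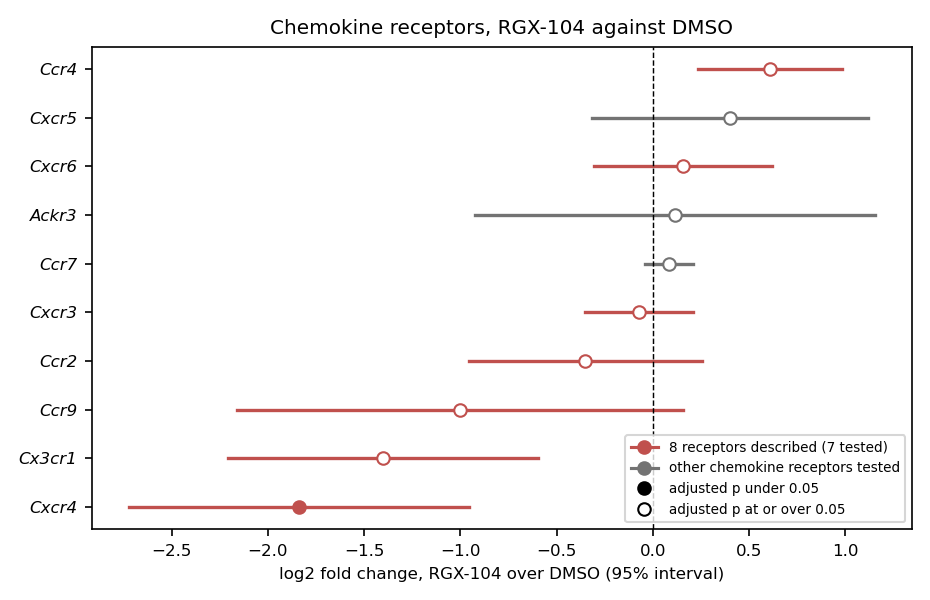
Log2 fold change of RGX-104 over DMSO (horizontal axis) with its 95% interval for 10 chemokine receptors, filled where the adjusted p was under 0.05. Of the receptors described, only Cxcr4 is filled, and the intervals of Cx3cr1 and Ccr4 leave out 0 although their adjusted p is 0.0562 and 0.0820.

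Cxcr3 (chromosome X, 101731535 to 101734269) encodes the receptor of the interferon-induced chemokines CXCL9 and CXCL10. It was at 29.8, 24.0, 22.1 and 22.5 CPM in RGX-104 replicates 5 to 8, against 28.5, 21.5, 25.4 and 28.2 CPM in DMSO replicates 1 to 4. The ranges covered each other almost wholly. The log2 fold change was -0.07 ± 0.13 (edgeR adjusted p = 0.872), and the 95% interval ran from a ratio of 0.782 to 1.15. With 1395 and 1590 reads in RGX-104 and DMSO libraries it was the most precisely measured of the 8, and a change of the size seen for Cxcr4 lies outside that interval.

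Cxcr6 (chromosome 9, 123806475 to 123811760) encodes the receptor of CXCL16 and is carried by effector and tissue-resident T cells. It was at 5.54, 7.58, 7.70 and 6.32 CPM in RGX-104 replicates 5 to 8, against 5.43, 6.92, 5.36 and 6.67 CPM in DMSO replicates 1 to 4. The groups overlapped, with a log2 fold change of 0.16 ± 0.22 (edgeR adjusted p = 0.825) and a 95% interval of the ratio from 0.808 to 1.54. The whole gene lies within Fyco1 on the opposite strand, without a shared exon.

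Ccr2 (chromosome 9, 124101950 to 124113557) encodes the receptor of CCL2 and related monocyte-attracting chemokines. It was at 2.74, 3.13, 3.08 and 4.95 CPM in RGX-104 replicates 5 to 8, against 4.65, 5.31, 3.91 and 3.83 CPM in DMSO replicates 1 to 4. Only RGX-104 replicate 8 reached the DMSO range. The log2 fold change was -0.35 ± 0.29 (edgeR adjusted p = 0.652; 95% interval of the ratio 0.515 to 1.19), and without RGX-104 replicate 8 it was -0.57 (adjusted p = 0.514). Across all fits with a library left out it ran from -0.57 to -0.25.

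Ccr9 (chromosome 9, 123678439 to 123784330) encodes the CCL25 receptor that directs T cells to the small intestine and that retinoic acid induces. It had 12, 10, 16 and 11 counts in RGX-104 replicates 5 to 8, against 14, 10, 18 and 64 counts in DMSO replicates 1 to 4. Apart from DMSO replicate 4 the libraries of both groups had 10 to 18 counts. The log2 fold change of -1.0 ± 0.56 (edgeR adjusted p = 0.447) came down to -0.07 ± 0.57 (adjusted p = 0.981) without DMSO replicate 4. At counts this low that fit does not show that Ccr9 was unchanged. Lztfl1, which overlaps Ccr9 on the opposite strand without a shared exon, did not share the excess: it was at 23.6 CPM in DMSO replicate 4 and at 25.2 to 27.8 CPM in the other DMSO libraries. Exons of Ccr9 overlap those of AC165425.1 on the opposite strand over 1932 bases and of Gm17200 on the same strand over 269 bases, so reads there cannot be assigned with certainty.

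Ccr8 (chromosome 9, 120092114 to 120094906) encodes the receptor of CCL1. It had 0 counts in all 4 RGX-104 libraries, which allows up to 0.201 to 0.229 CPM in each (3 counts, counting error only), against 0, 9, 2 and 0 counts in DMSO replicates 1 to 4. The DMSO reads thus came from 2 libraries, mainly replicate 2 at 0.605 CPM. Ccr8 did not pass the filter on low counts and is too low to judge. With no filter, its log2 fold change had an edgeR adjusted p of 0.322.

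Of 15 other chemokine receptor genes followed, 3 could be tested and edgeR called none, with 0 at an unadjusted p under 0.05 (DESeq2 called 0, limma-voom called 0); Ackr1, Ccr10 and Ccr1l1 were listed at 0 in every library. Ccr7, the receptor for lymph node entry, was at 493 ± 46.9 CPM in RGX-104 and 465 ± 24.7 CPM in DMSO libraries (SD, n = 4 each; edgeR adjusted p = 0.571). Cxcr5, the follicle-homing receptor, and the scavenging receptor Ackr3 overlapped between groups, with adjusted p of 0.666 and 0.947.

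Genes for the receptors' ligands were also followed. Of 14 listed, 8 were tested. Ccl1 rose and none fell (of all genes tested, 0.888% rose and 1.78% fell), and the median log2 fold change was -0.36. Ccl1, the ligand of CCR8, was at 6.10, 9.11, 12.6 and 8.99 CPM in RGX-104 replicates 5 to 8, against 4.91, 3.23, 4.48 and 3.90 CPM in DMSO replicates 1 to 4, with no overlap (log2 fold change 1.15 ± 0.25, edgeR adjusted p = 0.00993). Without RGX-104 replicate 7 the Ccl1 call was lost (0.96, adjusted p = 0.0685). Ccl22, a CCR4 ligand and a dendritic cell marker, was at 2.53, 2.16, 0.536 and 1.22 CPM in RGX-104 replicates 5 to 8, against 3.55, 3.43, 3.03 and 4.62 CPM in DMSO replicates 1 to 4 (log2 fold change -1.18 ± 0.41, edgeR adjusted p = 0.165). Ccr4 and Ccl22 separated the groups in opposite directions, neither past the threshold. The CXCR3 ligand genes Cxcl10 and Cxcl9 had log2 fold changes of -0.65 and -0.80 with overlapping groups (adjusted p = 0.272 and 0.576). Cx3cl1 had 1 to 3 counts in RGX-104 and 4 to 10 in DMSO libraries and was not tested, and Cxcl16, whose symbol the table repeats, was listed at 0.

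**Figure D3:**
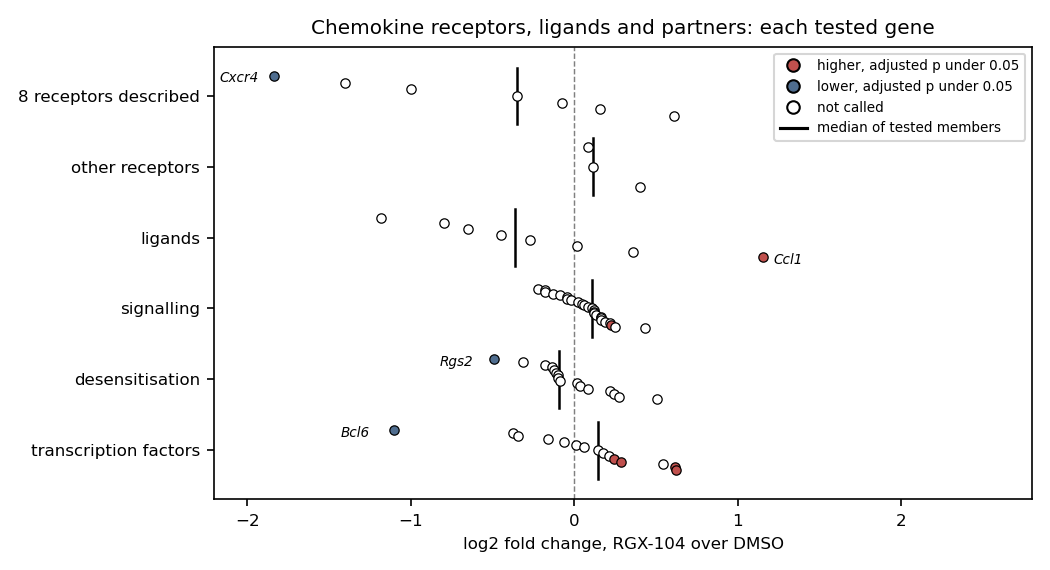
Log2 fold change of RGX-104 over DMSO (horizontal axis) for every tested gene of the receptors, their ligands, signalling partners, desensitisation genes and linked transcription factors; filled points had an adjusted p under 0.05 and black lines are medians. The receptors and ligands spread widely, from -1.84 for Cxcr4 to 1.15 for Ccl1, while the signalling genes lie between -0.22 and 0.43, the value of Pik3cd, whose symbol the table repeats. Most signalling genes had more counts than the receptors and ligands, and low counts alone widen such a spread.

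Genes of the machinery downstream of the receptors had more counts. Of 26 signalling genes 25 were tested. Rap1b rose and none fell (of all genes tested, 0.888% rose and 1.78% fell), with a median log2 fold change of 0.11. Rap1b, a small GTPase that couples chemokine receptors to integrin adhesion, averaged 338 ± 23.0 CPM in RGX-104 and 289 ± 11.0 CPM in DMSO libraries (SD, n = 4 each; log2 fold change 0.23 ± 0.06, edgeR adjusted p = 0.0247), without overlap. Its call was lost without any 1 of DMSO replicates 1, 2 and 3 and RGX-104 replicates 7 and 8 (adjusted p = 0.0511 to 0.116). Gnai2, the main inhibitory G protein alpha subunit of lymphocytes, was at 369 and 363 CPM in RGX-104 and DMSO libraries (log2 fold change 0.02 ± 0.05, adjusted p = 0.880). Rac2, a GTPase of the actin cytoskeleton, and the G protein subunit Gnb1 had log2 fold changes of 0.16 each, with adjusted p of 0.141 and 0.175.

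Of 18 genes in the table that end receptor signalling, 16 were tested. Rgs2 fell and none rose (of all genes tested, 1.78% fell and 0.888% rose), with a median log2 fold change of -0.09. Rgs2 speeds the shut-off of G protein alpha subunits. It averaged 84.2 ± 11.5 CPM in RGX-104 and 118 ± 2.40 CPM in DMSO libraries, without overlap (SD, n = 4 each; log2 fold change -0.49 ± 0.08, edgeR adjusted p = 0.000630). Rgs1, the regulator most tied to chemokine responses of lymphocytes, lay at -0.10 on the log2 scale without overlap (adjusted p = 0.505), and Rgs16 and Rgs19 of 0.50 and 0.28 (adjusted p = 0.191 and 0.196). The receptor kinase genes Grk2 and Grk6, at 0.03 and -0.09, were not called either.

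Transcription factors with known links to these receptor genes in T cells were listed too. Of 16 listed 15 were tested, of which 4 rose and 1 fell (of all genes tested, 0.888% rose and 1.78% fell), with a median log2 fold change of 0.15. Tbx21 encodes T-bet, which activates Cxcr3 in T cells; it averaged 158 ± 5.40 CPM in RGX-104 and 130 ± 9.35 CPM in DMSO libraries (SD, n = 4 each; log2 fold change 0.28 ± 0.06, edgeR adjusted p = 0.0144), beside a Cxcr3 difference of -0.07. The Tbx21 call was lost without DMSO replicate 2 (adjusted p = 0.0611). Rara, a retinoic acid receptor gene, rose by 0.63 ± 0.14 (adjusted p = 0.0160), beside Ccr9 counts too few to show whether Ccr9 moved with it. The Rara call was lost without any 1 of DMSO replicates 2 and 3 and RGX-104 replicate 5 (adjusted p = 0.0661, 0.0535 and 0.0732). Eomes rose by 0.62 and Irf4 by 0.24. Bcl6, the repressor that drives follicular helper cells, had a log2 fold change of -1.10 ± 0.14 (edgeR adjusted p = 4.72e-05). Zeb2, a factor of CX3CR1-positive effector cells, lay at -0.37 ± 0.13 with overlapping groups (adjusted p = 0.168), and Klf2 at -0.06. Runx3 was listed at 0 under a repeated symbol.

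The profile of each tested receptor over the 8 libraries was compared with those of 11208 other genes that averaged 20 counts or more in a group. As the highest of so many, these correlations are descriptions without a test, and group and library size are shared by all points. Cxcr4 was most like Hic1, which encodes a transcriptional repressor (Pearson r = 0.972, 8 libraries), and Psma1, a proteasome subunit gene (r = 0.971). Hic1 was called as lower (log2 fold change -0.90 ± 0.19, edgeR adjusted p = 0.00724), and its DMSO replicate 1 was also the lowest of that group. Cx3cr1 was most like Plek, the gene of pleckstrin, a protein kinase C substrate of leukocytes (r = 0.976), and Ddx19b (r = 0.974). Plek was called as lower too (log2 fold change -0.45 ± 0.08, adjusted p = 0.00123). Ccr4 was most like Mrps16 and Pet100 (r = 0.960 and 0.951), neither of them called. The centred profiles differed by a root mean square of 0.57 log2 units between Cxcr4 and Hic1 and of 0.47 between Cx3cr1 and Plek. The likeness is thus in the pattern over libraries and not in the size of the differences.

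**Figure D4:**
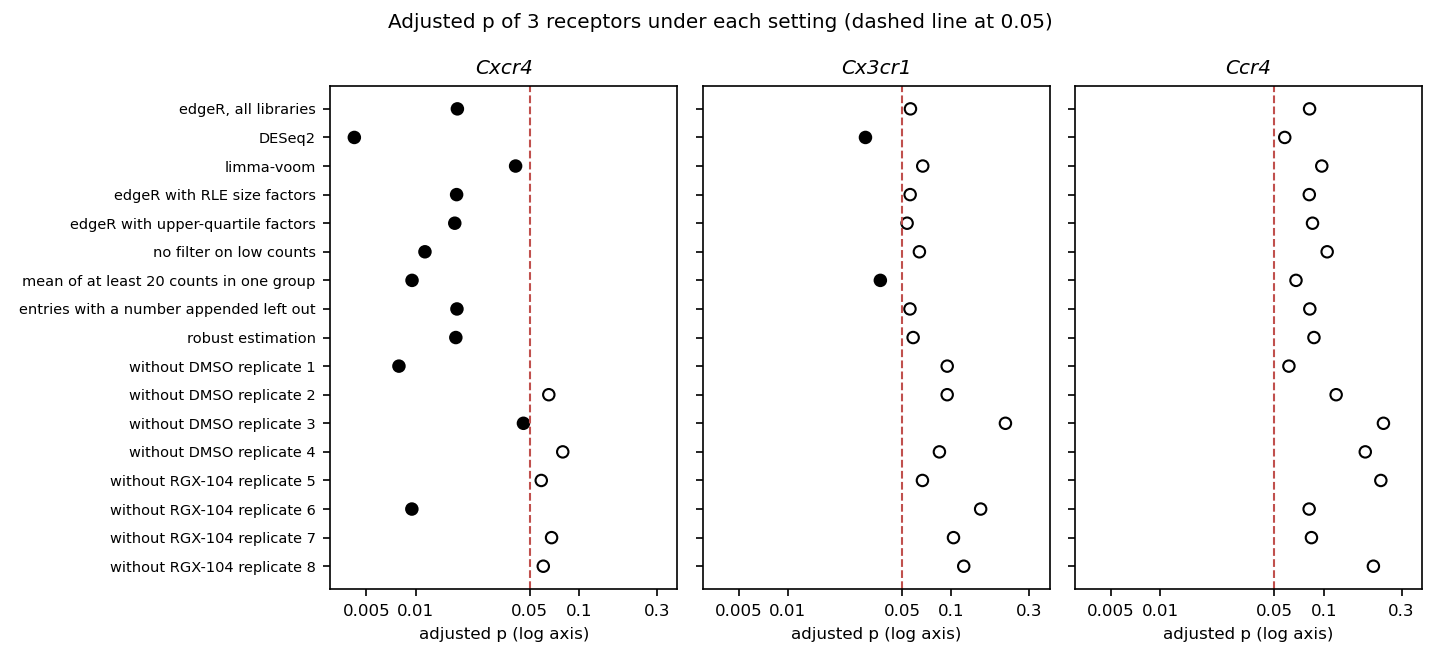
Adjusted p (horizontal log axis, dashed line at 0.05) of Cxcr4, Cx3cr1 and Ccr4 with all libraries under edgeR and under each of 16 alternatives (rows); filled points are under 0.05. Cxcr4 stays under the line in 11 alternatives, Cx3cr1 in 2 and Ccr4 in 0.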

How the data were processed

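RNA of 8 samples was read from transcript ends (Lexogen 3′ FWD kit, total RNA of sorted cells), per the labels' protocols. The authors deposited raw read counts per gene symbol; the submitters' processing notes name STAR 2.7.8a, R 4.1.0, DESeq2 1.4 and GRCm38. How reads were counted, with what strand setting and whether with molecular identifiers, is not given in the sources used here, so the limits given for counts of 0 cover counting error only. Each column's group word and number were found in 1 sample title, and 0 columns belonged to another series. The table holds 2379 entries with a number appended to a symbol, which repeat none of the 8 receptors. Replicates of a group were 6.34 to 9.60 times as far apart as counting noise (chi-square over its expectation), so none was counted as a duplicate.

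The main test was that of edgeR 4.0.16 under R 4.3.3 (filterByExpr, TMM, glmQLFit without robust estimation, glmQLFTest, two-sided, group as the only term), with Benjamini-Hochberg adjustment over 12162 genes and a threshold of 0.05. The SE is the log2 fold change divided by the square root of F, and the 95% interval uses the test's degrees of freedom. CPM are counts over TMM-scaled library sizes. DESeq2 1.42.0 and limma 3.58.1 served as alternatives, with other scalings, filters and each library left out. A receptor that failed filterByExpr was called too low to judge.

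The members, gene lists and tests were chosen with earlier results of these data known. The rule for naming took the 8 receptors, in each list the called genes and the 3 tested genes with the smallest p, and for each tested receptor the 2 genes most alike by Pearson r of log2 CPM (prior count 2). Not all genes under this rule are printed. Other markers named beside the myeloid receptors, Ncr1, Klrb1c, Klra4, Klra8, Gnai2, Rgs1, Grk2, Grk6, Cxcl9, Cx3cl1, Zeb2, Klf2, Pik3cd, genes listed at 0 and genes overlapping a receptor were chosen after their values were seen. Positions are from GENCODE M21 (GRCm38), promoters from RefSeq GRCm38.p6, 1-based. Adrbk1 and Adrbk2, older names of Grk2 and Grk3, and Trac, Trbc1 and Trbc2 matched no entry. A listed gene is not reported here.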

Additional observations from a re-analysis of the deposited data

Results flagged for a closer look

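In 9 of 134 groups of 4 libraries screened, 1 library stood far from the other 3; chance flags about 1 group in 20. Among the receptors these were Ccr9, at 4.23 CPM in DMSO replicate 4 against 0.672 to 1.14 CPM in the other DMSO libraries, and Cx3cr1, at 4.101 CPM in DMSO replicate 3 against 2.78 to 2.84 CPM. Hic1 was at 10.5 CPM in DMSO replicate 1 against 16.2 to 16.5 CPM in the others. Sgcb, a gene like Cxcr3 in profile, was at 6.52 CPM in RGX-104 replicate 5 against 4.08 to 4.19 CPM. Med15, a gene like Ccr9 in profile, was at 68.9 CPM in RGX-104 replicate 8 against 71.8 to 72.0 CPM. Rac2 was at 196 CPM in RGX-104 replicate 7 against 205 to 206 CPM, and the adaptor gene Lat at 213 CPM in RGX-104 replicate 8 against 177 to 181 CPM. The B cell markers held 0.000242% of counts in DMSO replicate 2 against 0.000179 to 0.000188%, and the dendritic cell and macrophage markers together 0.0193% in the same library against 0.0209 to 0.0212%.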

How the results depend on the processing

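No paired analysis was possible because replicate numbers are not shared between RGX-104 and DMSO. The count of called receptors, 1 lower and 0 higher, was 2 lower with DESeq2 and with the filter of a mean of at least 20 counts in a group, where Cx3cr1 joined Cxcr4, and 0 to 1 when each library was left out. Both receptors passed that filter only through their DMSO means. No receptor changed sign under any alternative: 105 values kept their side of the threshold, 5 lost the call (all Cxcr4) and 2 gained it (both Cx3cr1). Over all genes, calls numbered 324, with 202 to 303 when each library was left out; 108 were higher (167 with DESeq2, 57 to 93 with a library left out) and 216 lower (144 to 211). The 8 called genes of the surrounding lists became 5 to 9. Among the 7 tested receptors and 57 other genes, signs reversed in 5, none of them called under any alternative: Ackr3 (-0.057 to 0.23 with a library left out), Cd79b (0.093 with limma-voom, -0.29 to 0.14 with a library left out), Klf2 (-0.20 to 0.11), Pde7a (-0.092 to 0.00023) and Retnlg (-0.16 to 0.27). The share of counts of dendritic cell and macrophage markers was higher in RGX-104 by 0.00085 percentage points (exact permutation test, p = 0.314), and by 0.00027 without Cst3 and Ctss (p = 0.486). Both shares include Ly6c2. The cause of these shifts was not tested, and depth did not allow a test of Ccr8.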

Other observations

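The Ccr9 value of DMSO replicate 4 stood 3.72-fold above the next highest library. Among 10782 tested genes with at least 40 counts in their highest library this was the largest such gap, ahead of Lekr1 (3.26-fold, DMSO replicate 2), Kif1b (3.18-fold, DMSO replicate 2) and Mx2 (3.11-fold, DMSO replicate 1). This ranking was chosen after the Ccr9 values were seen. Ccrl2, an atypical receptor that did not pass the filter on low counts, had 4 to 8 counts in RGX-104 and 4 to 32 counts in DMSO libraries.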
